A study of Mus musculus with 12 samples.

Results

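Ductal macrophages of the mouse mammary gland were compared between animals 1 month after weaning and virgin animals, that is, between a gland that had been through pregnancy, lactation and regression and one that had not. The comparison takes 6 of the 12 libraries of the series: 3 Post-weaning and 3 Virgin libraries, chosen by their labels and not by any measured value. All animals were female C57BL/6 mice, with no transgene, deletion or treatment named for any group. The other 6 libraries are 3 from mice at day 16.5 of pregnancy and 3 from lactating mice; they helped to estimate the spread between libraries and are cited for the genes described here. The submitters call the 3 libraries of a stage biological replicates. Ages, numbers of litters, days of lactation and any pooling of animals were not given in the sources used here, so age and having lactated cannot be told apart in this comparison.

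Ductal macrophages lie between the luminal and basal layers of the mammary epithelium, in contact with both. Macrophages of this gland take up dying epithelial cells and milk lipid when lactation ends, handle iron and cholesterol from the cells they ingest, present antigen and secrete growth factors. A gland that has regressed after weaning looks much like that of a virgin animal under the microscope.

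RNA of 2000 sorted cells per library was copied to full-length cDNA and sequenced in 1 run. The 6 libraries held from 8704918 to 12709036 counts and from 11295 to 13476 detected genes. Across 7599 genes with a mean log2 level of at least 3, the Post-weaning libraries correlated with each other at a Pearson r between 0.885 and 0.907, and Virgin replicate 2 stood somewhat apart from the other 5 libraries, with r between 0.753 and 0.786. Lactating replicate 3 stood further apart, with r between 0.536 and 0.635 to the other 11 libraries, and entered the comparison through the common estimate of spread. All 24 macrophage identity genes were detected in both groups. Their summed share was between 3.84% and 4.39% of counts in Virgin and between 4.81% and 5.29% in Post-weaning macrophages. Levels are given as CPM, the count of a gene scaled to a common library total. The F4/80 gene Adgre1 was at 820, 713 and 698 CPM in the Virgin libraries and at 680, 748 and 798 CPM in the Post-weaning libraries, and the groups overlapped. Csf1r, the receptor for the growth factor CSF1, was at 1033, 1051 and 1070 CPM in Virgin and at 901, 1138 and 1196 CPM in Post-weaning macrophages, again with overlap.

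No gene passed the test between the stages. Of 12672 genes tested with edgeR's quasi-likelihood test, 0 (0.0%) had a Benjamini-Hochberg adjusted p under 0.05, and the lowest adjusted p was 0.1, for Bhlhe40 and Colec12. Without adjustment, 765 genes (6.04%) had a p under 0.05, of which 471 (3.72%) were higher and 294 (2.32%) lower after weaning. A second description used below is a count of genes whose 3 Post-weaning values lay all above or all below the 3 Virgin values. That held for 1949 genes (15.4%), with 1119 (8.83%) above and 830 (6.55%) below. These percentages are the background against which each group of genes is read.

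The same 12 libraries gave calls between other stages. At adjusted p under 0.05 in the same edgeR fit, 167 genes (1.32%) differed between pregnant and virgin mice and 246 (1.94%) between lactating and virgin mice. Against the Post-weaning libraries, 91 genes (0.718%) differed in pregnancy and 117 (0.923%) in lactation. These comparisons share the Virgin or the Post-weaning libraries, and a difference between their counts was not tested. Among the 7599 genes with a mean log2 CPM of at least 3, the 95% interval of the log2 fold change from virgin to post-weaning lay within 1 on either side of 0 for 1796 genes. The median half-width of that interval was 1.044. The interval is not adjusted for the 12672 genes tested, so it is not the smallest change that could be called. Larger changes also went uncalled, such as that of Adamdec1, with a log2 fold change of 3.72 and an edgeR adjusted p of 0.312.

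**Figure D1:**
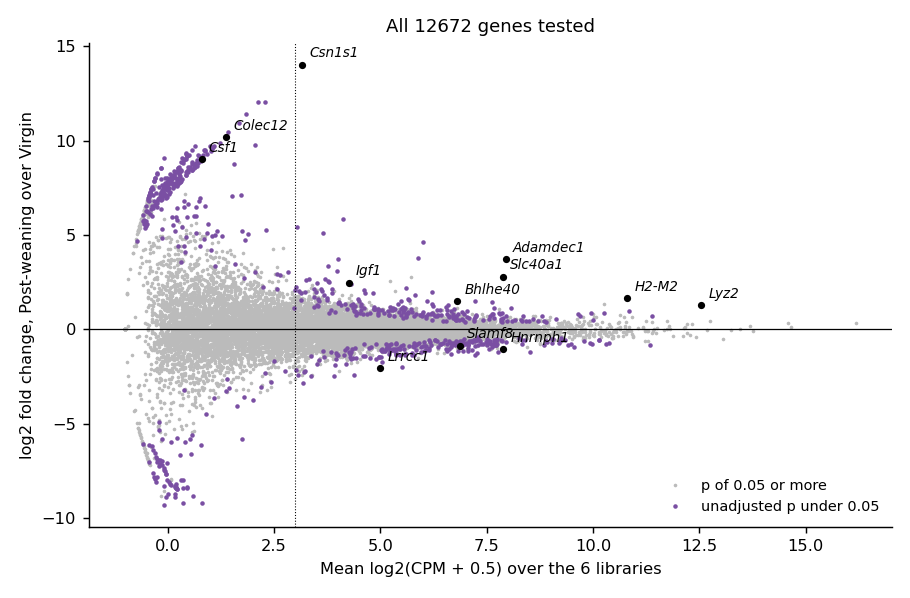
Each point is 1 of 12672 genes, with its mean log2(CPM + 0.5) over the 6 libraries on the horizontal axis and its log2 fold change, Post-weaning over Virgin, on the vertical axis. The 765 genes with an unadjusted p under 0.05 are in purple, the dotted line marks the mean log2 level of 3, and black points are genes named in the text; the arms at upper and lower left are genes with 0 counts in 1 of the groups.

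Other tools and libraries gave between 0 and 123 calls on the same counts. DESeq2 called 123 genes (0.971%), 89 higher and 34 lower, of which 45 had 0 counts in all Virgin libraries and 12 had 0 in all Post-weaning libraries. limma-voom called 11 (0.0868%), all higher after weaning, of which 8 had 0 counts in all Virgin libraries. They were Bhlhe40, Colec12, Slc40a1, Cd5l, Slc13a2, Dtna, Ccn5, Clca3a2, Fcgbp, Dkk3 and Scnn1b. With Lactating replicate 3 left out of the edgeR fit, 10 of 13426 genes (0.0745%) were called, all higher after weaning: H2-M2, Adamdec1, Zmynd15, 1700071M16Rik, Colec12, Csn1s1, Acp5, Bhlhe40, Csn2 and Cyp51. When a Virgin or Post-weaning library was left out as well, H2-M2 and Adamdec1 were called in 6 of 6 fits and each of the other 8 in 0 to 2 of them.

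H2-M2 encodes a nonclassical MHC class I protein. Its levels were 960, 985 and 1068 CPM in Virgin libraries and 3218, 2803 and 3461 CPM in Post-weaning libraries. The lowest Post-weaning value stood far above the highest Virgin value. The log2 fold change was 1.65 ± 0.41 (SE), with an edgeR adjusted p of 0.604 with all libraries and 0.000375 without Lactating replicate 3, and the range over all alternatives was 0.000375 to 1.0. Its 3 Lactating values were 6704, 6832 and 1621 CPM, the last of them in replicate 3. MHC class I genes have near-identical copies, between which reads can be split. The gene lies at chr17:37480851-37483554 (GRCm38.p6).

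Adamdec1 encodes a secreted metalloprotease of the ADAM family known from macrophages and dendritic cells. It was at 83.0, 35.3 and 96.3 CPM in the Virgin libraries, and at 698, 938 and 1184 CPM in the Post-weaning libraries. The groups were far apart, with means of 71.5 ± 32.1 and 940 ± 243 CPM (SD, n = 3 each). The log2 fold change was 3.72 ± 0.67 (SE), with an edgeR adjusted p of 0.312. Without Lactating replicate 3 the adjusted p was 0.00187, and over all alternatives it ran from 5.46e-08 with DESeq2 to 1.0. Among the Lactating libraries, replicate 3 was at 60.7 CPM and the other 2 were at 490 and 541 CPM. Adamdec1 lies at chr14:68563387-68582072.

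Bhlhe40 encodes a transcription repressor of the basic helix-loop-helix family that acts in circadian rhythm and in the proliferation and cytokine output of immune cells. Its 3 Virgin values were 73.5, 52.1 and 74.6 CPM, and its 3 Post-weaning values were 171, 210 and 181 CPM. The spread within each group was small beside the gap between them, and the log2 fold change was 1.49 ± 0.21 (SE). The edgeR adjusted p was 0.1. It ranged over the alternatives from 1.2e-09 with DESeq2 to 1.0 when tested against a 2-fold change. Bhlhe40 lies at chr6:108660629-108666925.

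Bhlhe40 and Adamdec1 belong to the 10 higher genes with the smallest unadjusted p among those whose groups did not overlap and whose mean log2 CPM was 3 or more, and H2-M2 does not. Zmynd15, a zinc finger gene, stood at 161, 125 and 124 CPM in Virgin and at 264, 312 and 331 CPM in Post-weaning macrophages, a log2 fold change of 1.14 ± 0.18 (SE). Adam8, which encodes a membrane protease that sheds adhesion molecules, was at 30.3, 34.9 and 26.5 CPM before and 51.6, 104 and 111 CPM after. Post-weaning replicate 1 was the lowest of its group for Adam8 and still above every Virgin library. Itgal encodes the alpha chain of the leukocyte integrin LFA-1, and its levels were 38.7, 38.8 and 31.1 CPM against 60.4, 84.9 and 87.6 CPM. Gcnt2 and B4galt1 both encode enzymes that extend sugar chains on proteins and lipids. Gcnt2 had a mean of 40.1 ± 19.1 CPM in Virgin and 156 ± 68.1 CPM in Post-weaning libraries, and B4galt1 had means of 40.8 ± 9.47 and 116 ± 22.5 CPM (SD, n = 3). Fam189a2 was at 63.2 ± 11.8 and 141 ± 25.6 CPM. The others, Hmgcs1 of cholesterol synthesis and the casein gene Csn1s1, are described with their groups below. Adjusted p in edgeR ran from 0.1 to 0.604 over these 10 genes.

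**Figure D2:**
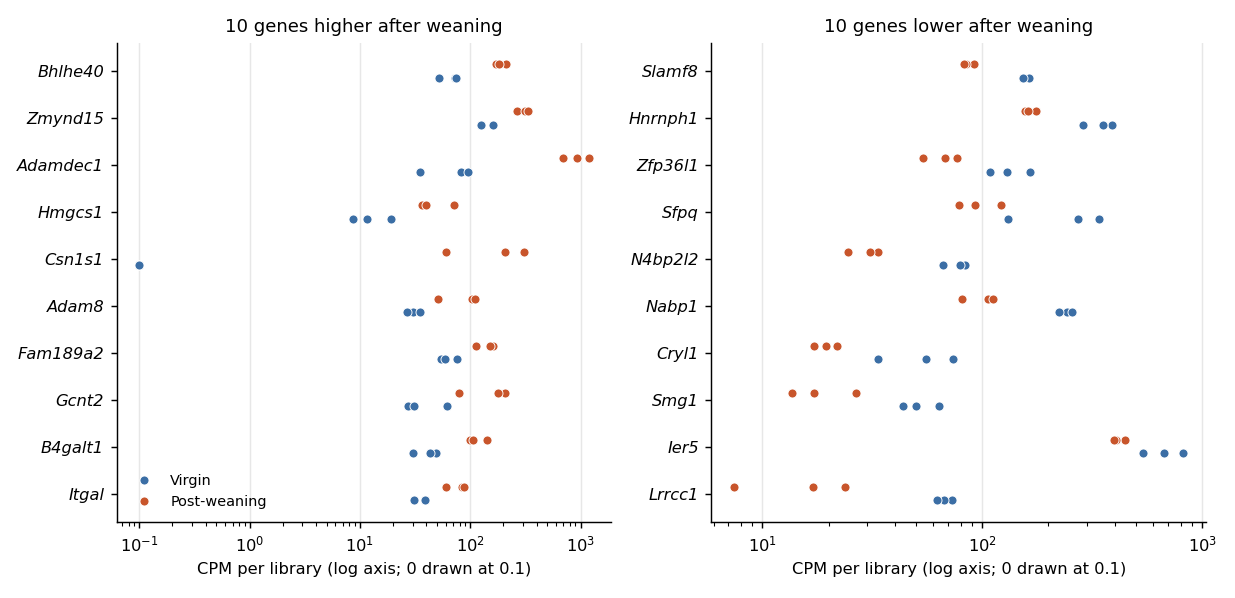
CPM in each of the 3 Virgin (blue) and 3 Post-weaning (orange) libraries, on a log axis, for the 10 genes with the smallest unadjusted p in each direction among genes whose groups did not overlap and whose mean log2 CPM was 3 or more. A value of 0, as for Csn1s1 in the 3 Virgin libraries, is drawn at 0.1; the points of the groups do not overlap in any of the 20 genes, which is how they were chosen.

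On the lower side, Slamf8 had the smallest unadjusted p. It encodes a SLAM family receptor of myeloid cells that restrains their production of reactive oxygen. Its levels were 154, 164 and 153 CPM in Virgin libraries and 92.0, 84.8 and 82.6 CPM in Post-weaning libraries, tight within each group and apart between them. The log2 fold change was -0.86 ± 0.17 (SE, edgeR adjusted p = 0.413). The 3 Post-weaning values also lay below all 6 values of pregnancy and lactation, which ran from 116 to 190 CPM, and Slamf8 was lower than in pregnancy with an edgeR adjusted p of 0.0165. Slamf8 lies at chr1:172581377-172590873.

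RNA-binding and RNA decay proteins appear several times among the other 9 lower genes. Hnrnph1, which encodes a splicing regulator, was at 388, 353 and 288 CPM in Virgin and at 175, 156 and 161 CPM in Post-weaning macrophages. Zfp36l1, whose protein binds AU-rich elements and speeds decay of cytokine mRNAs, was at 109, 165 and 130 CPM against 76.8, 53.6 and 67.7 CPM. Sfpq, a splicing and paraspeckle gene, was at 272, 338 and 131 CPM against 93.1, 122 and 78.0 CPM, and Smg1, the kinase of nonsense-mediated decay, had means of 52.2 ± 10.1 and 19.1 ± 6.71 CPM. These 4 were read as a set only after their values were seen, and they carry no test as a group. Lrrcc1, a centrosome gene, had the largest log2 difference of the 10, with means of 67.5 ± 5.56 and 16.1 ± 8.26 CPM (SD, n = 3). Nabp1, which encodes a single-stranded DNA binding protein, was at 240 ± 15.9 and 100 ± 16.9 CPM. N4bp2l2, Cryl1 and Ier5 had log2 fold changes of -1.36, -1.48 and -0.70, and edgeR adjusted p over all 10 lower genes ran from 0.413 to 0.604.

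The macrophage identity list was described first among the gene groups. Of its 24 members, all tested, 6 (25%) had no overlap and stood higher after weaning, against 8.83% of all genes, and 0 stood lower. The median log2 fold change was 0.14, against 0.02 over all genes tested, and 0 members passed the test. Lyz2, which encodes lysozyme, was at 5447, 3216 and 3120 CPM in Virgin and at 7504, 11040 and 10150 CPM in Post-weaning libraries. Spi1, the gene of the lineage factor PU.1, was at 200, 223 and 230 CPM against 305, 287 and 290 CPM. The other 4 were Cd14, C1qc, Cebpb and Laptm5, with log2 fold changes between 0.19 and 0.43. Fcgr1, the high-affinity IgG receptor gene, overlapped at 113, 168 and 148 CPM against 162, 169 and 222 CPM. Cx3cr1, the fractalkine receptor gene, overlapped too, at 384 ± 10.7 and 420 ± 61.3 CPM, as did Itgax, which encodes CD11c, at 248 ± 37.5 and 228 ± 44.2 CPM.

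Iron and heme genes had the highest share of members above the Virgin range outside the milk protein list and the 2-member neutrophil list. Macrophages recycle iron from ingested cells by breaking heme down, storing iron in ferritin and exporting it through ferroportin. In all, 9 of the 20 tested members (45.0%) stood higher with no overlap, against 8.83% of all genes, 0 stood lower, and the median log2 fold change was 0.48. Slc40a1, which encodes ferroportin, was at 73.2, 142 and 73.5 CPM in Virgin and at 331, 1020 and 655 CPM in Post-weaning libraries. Spic, the transcription factor gene of heme-handling macrophages, was at 62.7, 64.7 and 49.2 CPM against 98.0, 130 and 134 CPM. Blvrb, a biliverdin reductase gene, had means of 94.8 ± 6.11 and 186 ± 52.1 CPM. Ftl1, the ferritin light chain gene, and Slc11a1, the gene of the phagosomal metal transporter NRAMP1, had log2 fold changes of 0.49 ± 0.21 and 0.70 ± 0.31 (SE).

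The remaining 4 iron genes, Hp, Cp, Trf and Lcn2, encode secreted haptoglobin, ceruloplasmin, transferrin and lipocalin 2, which mammary epithelium also makes. Hp was at 0, 0 and 6.14 CPM in Virgin and at 190, 15.5 and 61.8 CPM in Post-weaning libraries, and Cp was at 0.115, 0.238 and 24.7 CPM against 124, 61.5 and 73.1 CPM. Trf was at 852, 657 and 795 CPM against 2331, 1759 and 1802 CPM, highest in replicate 1 of each group. Hp, Cp and Lcn2 were highest in Virgin replicate 3 among Virgin libraries and in Post-weaning replicate 1 among Post-weaning libraries. Those same libraries had the highest summed share of 18 luminal epithelial genes, 0.0987% of counts in Virgin replicate 3 against 0.0151% to 0.0180% in the other 2, and 0.102% in Post-weaning replicate 1 against 0.0270% to 0.0604%. In libraries of sorted cells, more epithelial cells or fragments among them and more of these RNAs per cell cannot be told apart, and the part of either was not tested. Without Virgin replicate 3 the log2 fold change of Cp moved from 3.35 to 8.79 and that of Hp from 5.41 to 12.9.

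Secreted growth factors are the signals that macrophages send to neighbouring cells. In all, 7 of 25 tested members of that list (28.0%) stood higher with no overlap, against 8.83% of all genes, and 0 stood lower. The median log2 fold change was 0.73. Of the 41 genes listed, 15 had 0 counts in all Virgin libraries and 6 had 0 in all Post-weaning libraries. The 15 could not stand lower, nor the 6 higher. Igf1, which encodes insulin-like growth factor 1, was at 4.71, 11.3 and 8.55 CPM in Virgin and at 32.0, 64.0 and 41.0 CPM in Post-weaning libraries. It had 0 counts in all 3 Lactating libraries, and the difference between post-weaning and lactation had an edgeR adjusted p of 0.00294, while that from virgin to post-weaning had 0.604. Pdgfc, a gene of a platelet-derived growth factor, was at 9.64, 9.82 and 6.29 CPM against 54.5, 52.9 and 28.0 CPM. Gdf15, a stress-induced member of the TGF-beta family, was at 49.5, 129 and 97.8 CPM against 214, 324 and 248 CPM.

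Csf1, the gene of the main macrophage growth factor, had 0 counts in all 3 Virgin libraries and was at 8.15, 3.16 and 6.39 CPM in the Post-weaning libraries. The ratio of pooled counts was at least 68.2-fold higher, with the Virgin group set at 3 counts over its 3 libraries together, and the edgeR adjusted p was 0.194. In Lactating libraries Csf1 stood at 14, 73.6 and 28.9 CPM. The last 3 of the 7 were Pdgfa, Tgfb3 and Grn, with log2 fold changes of 0.72, 1.08 and 0.49.

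Lysosomal genes encode the acid hydrolases, membrane proteins and proton pump of the compartment that digests ingested material. In all, 13 of 51 tested members (25.5%) stood higher with no overlap, against 8.83% of all genes, and 0 stood lower. A log2 fold change above 0 was seen in 44 of 51, with a median of 0.30 over the list. Acp5, the tartrate-resistant acid phosphatase gene, was at 771, 648 and 792 CPM in Virgin and at 1304, 1362 and 1323 CPM in Post-weaning libraries. Psap, which encodes the precursor of the saposins that assist lysosomal lipid breakdown, was at 2109 ± 274 and 3453 ± 348 CPM. Hexa and Acp2 had log2 fold changes of 0.43 ± 0.19 and 0.66 ± 0.29 (SE). The CLEAR motif bound by TFEB, a regulator of lysosomal genes, was searched as TCACGTGA on both strands in promoters of 300 bases, from 250 before to 50 after the start of transcription. It was found in 5 of 42 list genes with a promoter (Ctsa, Ctsd, Mcoln1, Atp6v0d1 and Atp6v1a), in 1.12% of all 27025 genes with a promoter and in 0.974% of all 32851 promoters. None of these 5 genes was among the 13 that stood higher.

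Lipid handling under the nuclear receptors PPAR and LXR had 8 of 33 members (24.2%) higher with no overlap, against 8.83% of all genes. A further 1 member stood lower (3.03%, against 6.55% of all genes), and the median log2 fold change was 0.39. Scd1, the stearoyl-CoA desaturase gene, was at 2.29, 3.01 and 12.1 CPM in Virgin and at 58.9, 33.9 and 18.9 CPM in Post-weaning libraries. Like the luminal epithelial shares, Scd1 was highest in Virgin replicate 3 and in Post-weaning replicate 1 of their groups, and the part of epithelial RNA in it was not tested. Rxra, the gene of the partner receptor of both PPAR and LXR, was at 15.2, 8.71 and 15.3 CPM against 41.4, 36.6 and 34.8 CPM. Srebf1, which encodes a transcription factor of fatty acid synthesis, had means of 15.1 ± 3.32 and 38.2 ± 19.6 CPM. Mylip, a ubiquitin ligase gene induced by LXR, was the 1 lower member, at 143 ± 29.4 and 89.2 ± 25.4 CPM. Cd36, the fatty acid scavenger receptor gene, overlapped at 550, 1027 and 982 CPM against 1072, 1470 and 994 CPM.

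Cholesterol synthesis and uptake had 5 of 25 members (20%) higher with no overlap, against 8.83% of all genes, and 0 lower. Hmgcs1, Mvd, Cyp51 and Stard4 were among the 5, and the median log2 fold change was 0.33. Hmgcs1, which encodes an early enzyme of the mevalonate pathway, was at 8.61, 11.5 and 19.1 CPM in Virgin and at 71.2, 36.7 and 39.8 CPM in Post-weaning libraries. Its log2 fold change was 1.91 ± 0.36 (SE, edgeR adjusted p = 0.385). Cyp51, the lanosterol demethylase gene, was at 18, 15.9 and 9.72 CPM against 69.0, 55.5 and 41.7 CPM. Lss, the gene of lanosterol synthase, overlapped, with 85 pooled counts in Virgin and 1 in Post-weaning libraries. Genes of this pathway are known targets of SREBP2, which binds sterol regulatory elements. The element searched, TCACNCCAC on both strands, occurred in 1.24% of all promoters, in 1.44% of all genes with one and in 1 of the 18 list genes with a promoter, Hmgcs1. Its promoter is shown because Hmgcs1 is the member of this pathway with the smallest unadjusted p (RefSeq, GRCm38.p6, chr13:119690101-119690400, plus strand), with the element, 137 to 129 bases before the start, in capitals.
Hmgcs1 promoter: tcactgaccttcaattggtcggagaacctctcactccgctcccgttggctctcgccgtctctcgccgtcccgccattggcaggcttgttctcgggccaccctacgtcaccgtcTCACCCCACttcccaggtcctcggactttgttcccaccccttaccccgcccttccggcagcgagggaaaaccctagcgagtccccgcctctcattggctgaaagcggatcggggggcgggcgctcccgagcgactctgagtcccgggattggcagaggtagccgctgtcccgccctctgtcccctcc

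Genes for the uptake of dying cells and lipid had 8 of 29 members (27.6%) higher with no overlap, against 8.83% of all genes. Cd300lf was the 1 lower member (3.45%, against 6.55% of all genes), and the median log2 fold change was 0.22. Colec12, which encodes a scavenger receptor with a collectin domain, had 0 counts in the 3 Virgin libraries and was at 12.9, 9.69 and 16.9 CPM in the Post-weaning libraries. Its pooled counts were at least 151-fold higher against 3 counts over the Virgin group, and its edgeR adjusted p was 0.1. Cd5l, a secreted scavenger protein gene of resident macrophages outside this list, also had 0 counts in all Virgin libraries, and stood at 10.4, 15.0 and 3.63 CPM after weaning. Mfge8, which encodes a bridge between phosphatidylserine and integrins and is also a milk fat globule protein, was at 0.344, 12.4 and 75.9 CPM against 639, 243 and 337 CPM. Like the luminal epithelial shares, Mfge8 was highest in Virgin replicate 3 and in Post-weaning replicate 1 of their groups. Trem2, a lipid-sensing receptor gene, overlapped at 33.4, 123 and 53.7 CPM against 62.1, 53.2 and 69.7 CPM.

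Integrin and adhesion genes had 9 of 24 members (37.5%) higher with no overlap, against 8.83% of all genes. Itgam was the 1 lower member (4.17%, against 6.55% of all genes), and the median log2 fold change of the list was 0.37. Their summed share was 0.625% to 0.743% of counts in Virgin and 0.947% to 0.996% in Post-weaning libraries, with no overlap. Vcam1, a ligand of leukocyte integrins, was at 1707, 1072 and 1216 CPM against 2495, 2567 and 2689 CPM. Itgb2, the beta chain that pairs with the Itgal product, was at 107, 139 and 215 CPM against 249, 277 and 297 CPM. Itgam, which encodes CD11b, the alpha chain of the integrin Mac-1, was low in both groups, at 10.7, 16.9 and 10.3 CPM against 2.38, 8.26 and 1.81 CPM. Alcam was at 1.38, 2.69 and 0.0731 CPM against 18, 4.49 and 5.01 CPM. Matrix remodelling genes had 5 of 23 (21.7%) higher, against the same 8.83%, among them Adam8, Mmp13, Plaur and Spp1, and 0 lower. Mmp2, a gelatinase gene, overlapped at 43.8, 72.0 and 30.9 CPM against 67.0, 139 and 167 CPM.

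A pair of lists describe resident macrophage types. Of 15 tested genes of stromal and perivascular macrophages, 5 (33.3%) stood higher with no overlap, against 8.83% of all genes, and 0 lower. The 5 were Mrc1, Gas6, Pf4, Ninj1 and Colec12, and the median log2 fold change was 0.68. Gas6 was at 0.918, 8.16 and 26.2 CPM in Virgin and at 103, 37.0 and 45.6 CPM in Post-weaning libraries. Like the luminal epithelial shares, Gas6 was highest in Virgin replicate 3 and in Post-weaning replicate 1 of their groups. The summed share of the list overlapped, at 0.442% to 0.550% of counts in Virgin and 0.505% to 0.639% in Post-weaning libraries, and of its 24 genes 6 had 0 counts in all Virgin and 10 in all Post-weaning libraries. Mrc1, the mannose receptor gene, was at 64.6, 108 and 124 CPM in Virgin and at 129, 183 and 166 CPM in Post-weaning libraries. The log2 fold change of Mrc1 was 0.68 ± 0.96 (SE), and the nearest values of the groups were 124 and 129 CPM. Ninj1, an adhesion gene, was at 134, 206 and 171 CPM against 315, 314 and 280 CPM. Pf4, a chemokine gene, was at 19.6 ± 3.83 and 41.9 ± 8.32 CPM. Of 16 microglia-like genes, 4 (25%) stood higher, P2ry12, P2ry13, Tmem119 and Olfml3, against the same 8.83% of all genes. Tgfbr1 alone stood lower (6.25%, against 6.55%), and the median log2 fold change was 0.04, against 0.02 over all genes. P2ry13, a nucleotide receptor gene, was at 89.4, 44.6 and 55.9 CPM against 131, 159 and 166 CPM, and Tmem119 was at 169 ± 56.3 and 303 ± 22.1 CPM.

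**Figure D3:**
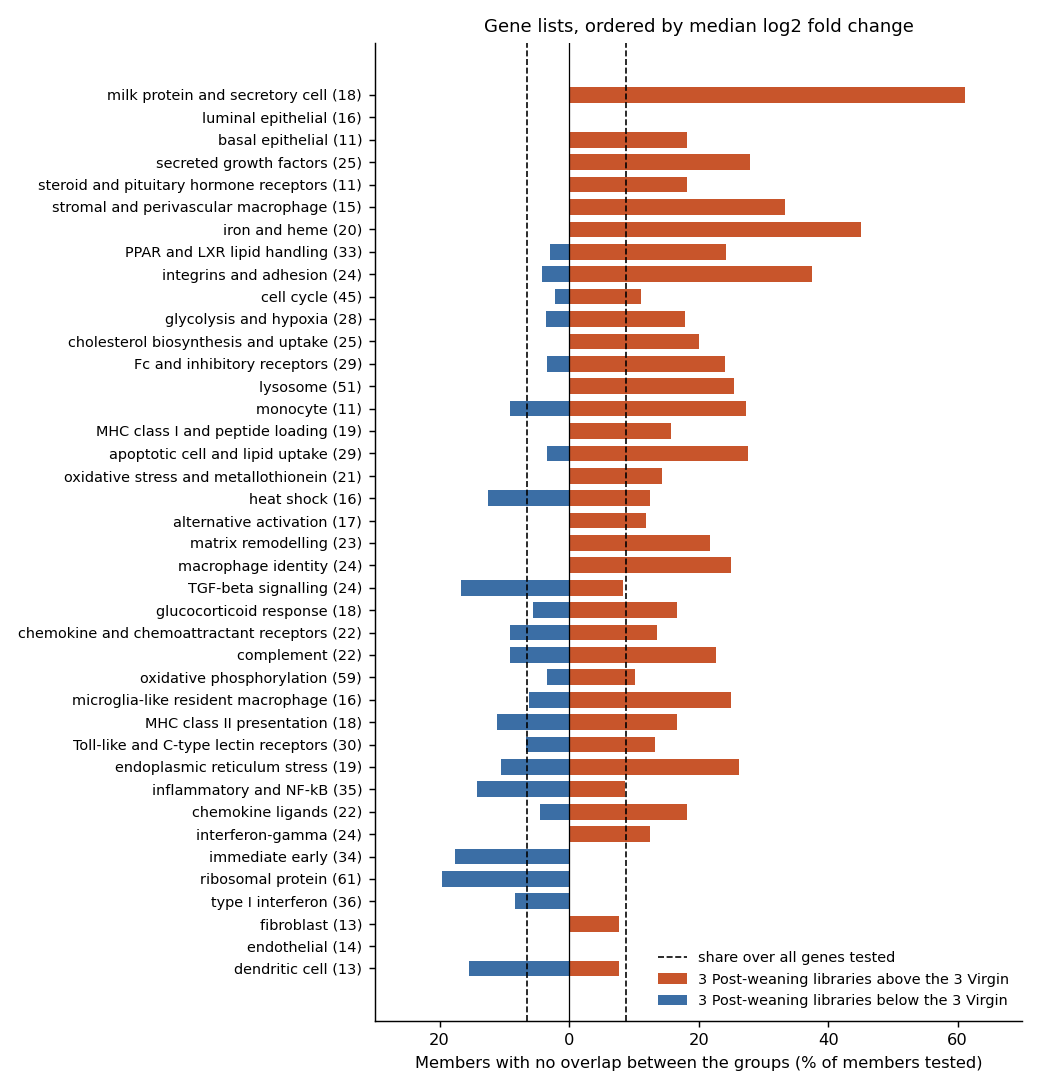
For each gene list, the percent of its tested members (number in brackets) whose 3 Post-weaning values all lay above the 3 Virgin values (orange, to the right) or all below (blue, to the left), with lists ordered by median log2 fold change and lists of fewer than 10 tested members not drawn. The dashed lines mark the shares over all 12672 genes, 8.83% above and 6.55% below; the milk protein list reaches 61.1% above and the ribosomal protein list 19.7% below.

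Immediate early genes, which cells switch on within minutes of a stimulus, including tissue digestion, had 0 of 34 members higher with no overlap and 6 (17.6%) lower, against 6.55% of all genes. The median log2 fold change was -0.22. Klf6, a zinc finger transcription factor gene, was at 1059, 1446 and 1639 CPM in Virgin and at 1029, 878 and 935 CPM in Post-weaning libraries. Btg2, an antiproliferative gene, was at 656, 719 and 849 CPM against 477, 439 and 602 CPM. The others were Fosl2, Ier5, Nr4a2 and Zfp36l1. Fos itself overlapped, at 1375, 1731 and 1979 CPM against 2132, 1672 and 1528 CPM. How long the cells were kept at each step of isolation was not given in the sources used here, and its part in these values was not tested.

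Inflammatory and NF-kB genes had 3 of 35 (8.57%) higher, Il10, Cxcl1 and Tnfaip2, near the 8.83% of all genes. Another 5 (14.3%) stood lower, Il1a, Cxcl2, Nfkbiz, Rel and Ptgs2, against 6.55% of all genes. The median log2 fold change was -0.03. Il10, whose product restrains inflammation, was at 169, 146 and 232 CPM in Virgin and at 459, 312 and 434 CPM in Post-weaning libraries. Nfkbiz, which encodes an atypical inhibitor of NF-kB, was at 1095, 1657 and 1030 CPM against 791, 745 and 736 CPM. Ptgs2, the gene of cyclooxygenase 2, was at 287, 311 and 241 CPM against 106, 159 and 140 CPM. Among 36 type I interferon genes, 0 stood higher and 3 (8.33%) lower, Parp14, Phf11d and Slfn8. That share was near the 6.55% of all genes, and the median was -0.32. Cxcl10, an interferon-induced chemokine gene, overlapped at 293, 877 and 592 CPM against 306, 206 and 249 CPM. Skil, a negative regulator of TGF-beta signalling, stood lower, at 928, 1389 and 829 CPM against 530, 521 and 596 CPM.

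Ribosomal protein genes had 0 of 61 members higher with no overlap and 12 (19.7%) lower, against 8.83% and 6.55% of all genes. Of the 61, 7 had a log2 fold change above 0. The median was -0.29, and the summed share was 0.334% to 0.350% of counts in Virgin and 0.238% to 0.306% in Post-weaning libraries. Rpl8 was at 165, 199 and 194 CPM against 148, 99.7 and 116 CPM, and Rpl23 had means of 85.4 ± 33.5 and 35.4 ± 9.19 CPM. These genes have many near-identical pseudogenes, so their counts are uncertain. MHC class II presentation genes had 3 of 18 members higher (16.7%), Cd74, H2-DMb1 and Cd80, and 2 lower (11.1%), H2-Eb2 and H2-Oa. Over all genes the shares were 8.83% higher and 6.55% lower. The median log2 fold change of the class II list was 0.04. Its summed share was 13.4% to 14.1% of counts in Virgin and 14.3% to 16.7% in Post-weaning libraries, with no overlap. Cd74, the invariant chain gene, was at 66150, 63280 and 69120 CPM in Virgin and at 82590, 76240 and 91680 CPM in Post-weaning libraries, a log2 fold change of 0.34 ± 0.41 (SE). Dendritic cell genes had 1 of 13 members higher (7.69%), Clec9a, and 2 lower (15.4%), Batf3 and Kit, against the same 8.83% and 6.55%. Their median log2 fold change was -0.59, and 3 of 13 were above 0. The summed share of the list was 0.0201% to 0.0402% of counts in Virgin and 0.0177% to 0.0198% in Post-weaning libraries, with no overlap but a narrow gap.

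The list of milk proteins and secretory cell genes had, of the 45 lists, the highest share of members above the Virgin range. Caseins are the main proteins of milk and are made by luminal epithelial cells under prolactin, through the transcription factor STAT5. In all, 11 of 18 tested members (61.1%) stood higher with no overlap, against 8.83% of all genes, and 0 lower. Their summed share was 0.000299%, 0.00108% and 0.00993% of counts in Virgin replicates 1, 2 and 3 and 0.224%, 0.0961% and 0.0584% in Post-weaning replicates 1, 2 and 3. The groups did not overlap, and the lowest Post-weaning share was above the highest Virgin share. Of the 20 list genes, 12 had 0 counts in all Virgin libraries and 7 had 0 in all Post-weaning libraries. The 12 could pass the low-count filter only through other stages and could not stand lower.

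Csn1s1, which encodes alpha-S1-casein, had 0 counts in the 3 Virgin libraries and was at 304, 207 and 60.9 CPM in the Post-weaning libraries. Its pooled counts were at least 2130-fold higher against 3 counts over the Virgin group (edgeR adjusted p = 0.413). Csn2, the beta-casein gene, was at 0, 0 and 0.0731 CPM against 39.8, 47.1 and 17.7 CPM. It had 1 pooled count in Virgin and 1102 in Post-weaning libraries, a ratio of 1160 with a 95% interval of 208 to 45900 for counting error only. Csn3, the kappa-casein gene, was at 0, 9.27 and 77.1 CPM against 1487, 357 and 336 CPM, with Post-weaning replicate 1 the highest. Ltf, which encodes the iron-binding milk protein lactoferrin and is also a neutrophil granule gene, was at 2.87, 0.555 and 3.22 CPM against 147, 136 and 102 CPM. Of the 14 neutrophil markers, 11 had 0 counts in all 3 libraries of each group. The summed share of the neutrophil list, which includes Ltf, was 0.00679% to 0.0135% in Virgin and 0.0159% to 0.0232% in Post-weaning libraries. The cell source of Ltf was not tested. Btn1a1 and Csn1s2a, at 0 in every Virgin library, were at 31.0 ± 22.9 and 47.9 ± 31.0 CPM after weaning.

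The STAT5 motif TTCNNNGAA, which reads the same on both strands, was searched in the 300-base promoters. It occurred in 8.30% of all promoters, in 9.55% of all genes with one and in 5 of the 14 list genes with a promoter, namely Pigr, Csn1s1, Csn2, Csn1s2a and Glycam1. The promoters of the 2 caseins called without Lactating replicate 3 are shown (RefSeq, GRCm38.p6), with the motif in capitals: Csn1s1 at chr5:87665958-87666257, plus strand, with the motif 100 to 92 bases before the start, and Csn2 at chr5:87699376-87699675, minus strand, with the motif 93 to 85 bases before the start.
Csn1s1 promoter: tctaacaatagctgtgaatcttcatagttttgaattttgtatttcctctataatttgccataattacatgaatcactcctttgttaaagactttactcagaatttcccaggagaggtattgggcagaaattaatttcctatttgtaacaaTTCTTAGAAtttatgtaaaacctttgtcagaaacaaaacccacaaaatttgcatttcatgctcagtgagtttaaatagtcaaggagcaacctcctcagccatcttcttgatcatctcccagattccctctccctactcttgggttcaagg
Csn2 promoter: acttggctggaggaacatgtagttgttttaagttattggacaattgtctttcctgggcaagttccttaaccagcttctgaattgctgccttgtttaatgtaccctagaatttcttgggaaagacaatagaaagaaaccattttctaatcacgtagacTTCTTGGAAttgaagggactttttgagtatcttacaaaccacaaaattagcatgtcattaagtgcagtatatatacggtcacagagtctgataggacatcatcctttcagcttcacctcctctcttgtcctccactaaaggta

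Epithelial genes other than those of milk varied widely within both groups. Of 16 tested luminal epithelial genes, 0 stood higher and 0 lower with no overlap, and their median log2 fold change was 0.91. Krt18, a luminal keratin gene, was at 46.0, 49.5 and 223 CPM in Virgin and at 275, 156 and 71.4 CPM in Post-weaning libraries. Epcam, which encodes an epithelial adhesion protein, was at 20.9, 9.27 and 86.5 CPM against 228, 134 and 57.9 CPM. For both genes, Virgin replicates 1 and 2 lay below all 3 Post-weaning values, and Virgin replicate 3 lay above the lowest Post-weaning value. The milk protein share was highest in Virgin replicate 3 and Post-weaning replicate 1 of their groups, as the luminal share was. Basal epithelial genes had 2 of 11 higher with no overlap (18.2%, against 8.83% of all genes), Krt5 and Cnn1, and 0 lower, with a median log2 fold change of 0.77.

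**Figure D4:**
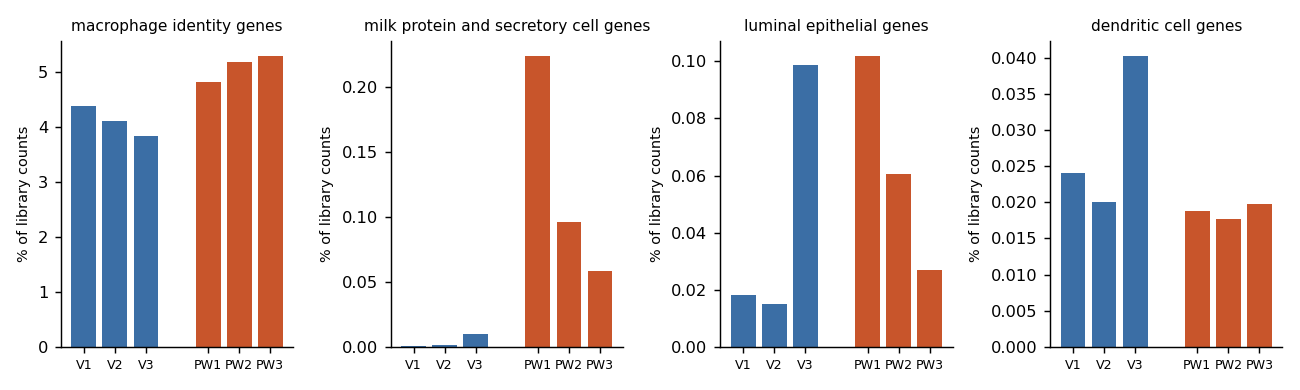
Summed share of 4 marker lists, in percent of all counts of a library, for Virgin replicates V1 to V3 (blue) and Post-weaning replicates PW1 to PW3 (orange), each panel with its own axis from 0. Macrophage identity genes take 3.84% to 5.29%, milk protein genes stay under 0.01% in Virgin and reach 0.224% in PW1, and V3 and PW1 hold the highest luminal epithelial shares, 0.0987% and 0.102%.

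The 17 other lists of macrophage states and functions ran from heat shock and chemokines to glycolysis, the cell cycle and hormone receptors. They had between 8.33% and 26.3% of tested members higher with no overlap and between 0% and 16.7% lower, against 8.83% and 6.55% of all genes. Their median log2 fold changes lay between -0.15 and 0.70. No member of any of the 45 lists passed the edgeR test, and the lists share members. Oxidative phosphorylation, with 6 of 59 members higher (10.2%) and a median of 0.07, was among the lists nearest to all genes. Markers of other cell types took small shares of the counts in both groups. Monocyte genes took 0.0630% to 0.0757% in Virgin and 0.0668% to 0.0762% in Post-weaning libraries, T and NK cell genes 0.0226% to 0.0402% and 0.0214% to 0.0278%, and B and plasma cell genes 0.0261% to 0.0469% and 0.0280% to 0.0495%. Fibroblast genes took 0.00448% to 0.0430% and 0.0108% to 0.0245%, with the highest value in Virgin replicate 2, and endothelial genes 0.00362% to 0.0170% and 0.00340% to 0.0130%. Adipocyte genes took 0.0126% to 0.0387% and 0.0293% to 0.0434%, and genes of mast cells, basophils and eosinophils 0.00216% or less. The shares of these 7 lists overlapped between the groups.

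The other 2 stages show whether a Post-weaning level was shared with pregnancy or lactation or stood apart from them. In 166 of the 12672 genes tested all 3 Post-weaning libraries lay above the 9 other libraries, and in 71 they lay below. How many genes would do so with no difference between stages was not tested. Igf1, Slc40a1, Spic, Gdf15, Pdgfc, Cd5l and Mrc1 were among the 166, and Slamf8, Sfpq, N4bp2l2 and Rpl8 were among the 71. Spic was at 59.7, 60.1 and 60.4 CPM in pregnancy and at 56.7, 78.2 and 47.5 CPM in lactation, overlapping its Virgin values at both stages. Slc40a1 was at 165, 188 and 196 CPM in pregnancy and at 0.173, 9.32 and 0 CPM in lactation, and post-weaning differed from lactation with an edgeR adjusted p of 0.0191. Gdf15 was at 67.5, 43.4 and 40.4 CPM in pregnancy, below the Post-weaning values with an edgeR adjusted p of 0.0184.

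Bhlhe40, Adamdec1 and Hmgcs1 also stood higher in pregnancy than in virgin mice. Bhlhe40 was at 231, 219 and 259 CPM in pregnancy and at 286, 391 and 283 CPM in lactation. It differed from virgin with an edgeR adjusted p of 0.0053 in pregnancy and 0.0011 in lactation. Adamdec1 was at 1014, 1339 and 1230 CPM in pregnancy, with an edgeR adjusted p of 0.016 against virgin. Hmgcs1 was at 110, 97.5 and 70.7 CPM in pregnancy and 131, 108 and 106 CPM in lactation, with edgeR adjusted p of 0.00681 and 0.0041 against virgin. H2-M2 was at 1097, 913 and 990 CPM in pregnancy, overlapping the Virgin values, and higher in lactation than in virgin mice with an edgeR adjusted p of 0.0187.

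Several genes that differed between virgin and pregnant mice overlapped between Virgin and Post-weaning libraries. Fos was at 610, 438 and 546 CPM in pregnancy, with an edgeR adjusted p of 0.00681 against virgin and 0.00796 against post-weaning. Trem2 was at 6.45, 2.87 and 1.24 CPM in pregnancy, with adjusted p of 0.01 and 0.0184 in the same edgeR comparisons. Cd36 was at 295, 73.8 and 86.4 CPM, with edgeR adjusted p of 0.0318 and 0.0231. The comparisons with virgin and with post-weaning share the Pregnant libraries.

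**Figure D5:**
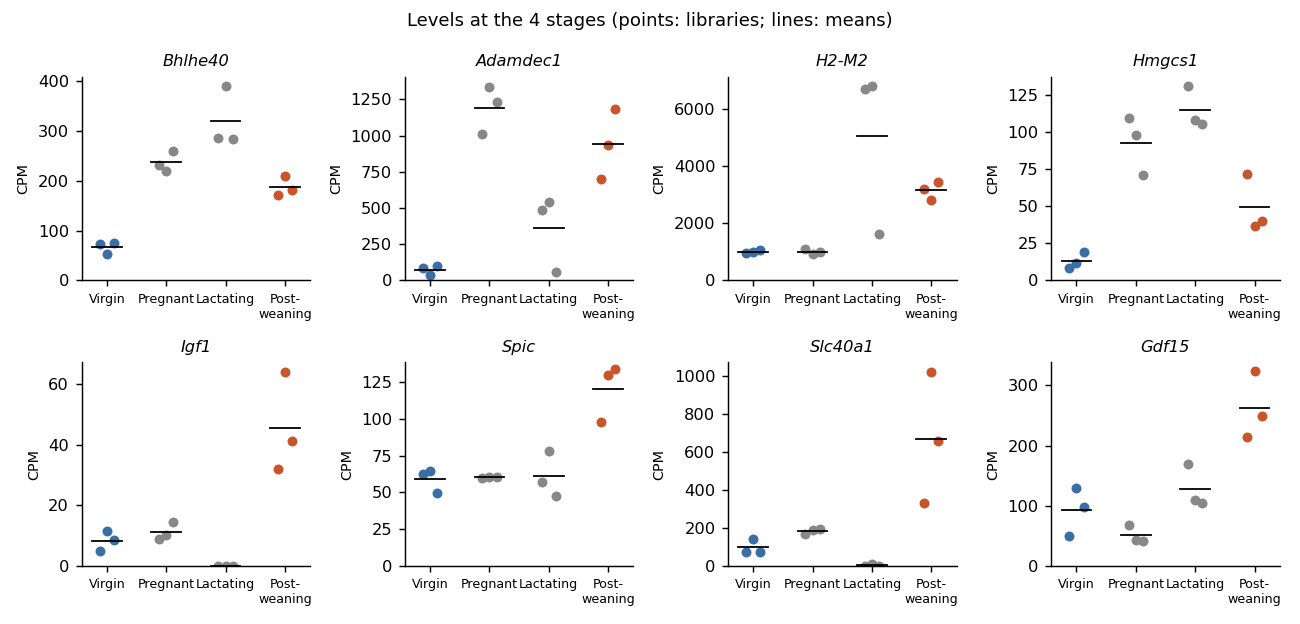
CPM of 8 genes in the 12 libraries, by stage, with a line at the mean of the 3 libraries and a separate axis for each gene. Igf1, Spic, Slc40a1 and Gdf15 are higher in all 3 Post-weaning libraries than in the other 9, whereas Bhlhe40 and Hmgcs1 are higher at the 3 later stages than in Virgin libraries; the low Lactating point of Adamdec1 and of H2-M2 is replicate 3.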

How the data were processed

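Read counts per gene were used for 12 libraries of sorted mouse mammary ductal macrophages. Per the labels' protocols, RNA was taken from freshly sorted cells, cDNA was made from 2000 cells with the SMART-Seq v4 kit, which has no molecular identifiers, and all libraries shared 1 NextSeq run. The authors deposited raw counts, whole numbers per Entrez gene, from featureCounts and mm10 per the submitters' processing notes. The aligner, tool versions, strand setting and gating were not given in the sources used here, so reads of overlapping or antisense genes cannot be told apart. Symbols, coordinates and promoters came from RefSeq tables of GRCm38.p6, which matched 25275 of 27179 identifiers (93%), and the rest held at most 0.825% of counts.

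The main test was edgeR 4.0.16 in R 4.3.3 (robust quasi-likelihood fit, TMM scaling, filterByExpr by stage), with a mean per stage over all 12 libraries and Benjamini-Hochberg adjustment over all genes tested. CPM used the counts of a library over the genes tested, multiplied by its TMM factor. These factors ran from 0.7906 in Lactating replicate 1 to 1.14 in Pregnant replicate 3. Shares of counts and pooled-count ratios used total counts without that factor. DESeq2 1.42.0, limma 3.58.1 and other scalings, filters and library sets were alternatives. In the main test, p-values and 95% intervals of fitted log2 fold changes rest on the spread between libraries of the same stage. That spread was estimated over all 12 libraries, Lactating replicate 3 included, with information shared across genes. Intervals of pooled-count ratios cover counting error only. The scripts were tested on simulated data.

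Genes were named by rule: the 10 with the smallest unadjusted p in each direction among named genes whose groups did not overlap and whose mean log2 CPM was 3 or more, since no gene was called, and 12 genes followed in any case. Other genes were named after their values were seen. The members and the 45 gene lists were chosen with earlier results of these data known, and lists are described by counts with no test. Some list members are counted but not reported here by name.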

Additional observations from a re-analysis of the deposited data

How the results depend on the processing

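The count of called genes was 0 with all libraries and remained 0 with RLE size factors, with TMM factors set without milk, epithelial, ribosomal and mitochondrial genes, with no low-count filter, with a filter of 5 CPM in 3 libraries, and when testing against a 2-fold change. It was 123 with DESeq2, 11 with limma-voom, 1 with limma-voom and quality weights (Adamdec1), 1 in the fit to the 6 libraries compared (H2-M2), and 10 without Lactating replicate 3. Alternatives chosen after seeing the data gave 2 without the 3 Lactating libraries, and 2 to 14 when Lactating replicate 3 and 1 Virgin or Post-weaning replicate were both left out. Leaving out 1 Virgin or Post-weaning replicate alone gave 0 to 0. Same-numbered Virgin and Post-weaning libraries did not deviate together (r of -0.0392, -0.0237 and -0.0717 across genes), so the numbers pair nothing; with a replicate block the count was 0, and 0 in the 6 libraries.

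Of 154 genes followed through 25 alternatives, 5 changed direction somewhere, all of them genes whose groups overlapped. The log2 fold change of Adgre1, -0.0 in the fit reported, was 0.01 without the filter, with the replicate block and without Lactating replicate 3, 0.0024 with the 5 CPM filter, 0.0004 with limma-voom, 0.00095 without the Lactating libraries and -0.06 to 0.09 with a replicate left out. Trem2 was at 0.22 with quality weights, 0.03 with the replicate block in 6 libraries and -0.5 to 0.5 with a replicate left out. With a replicate left out, Csf1r ran from -0.04 to 0.16, Itgax from -0.23 to 0.03 and Fos from -0.08 to 0.2. The cause was not tested. List medians moved by more than their spread in 132 cases and by less in 723.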
